A study of Homo sapiens with 2 samples.

Results

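MIR99AHG is a long noncoding RNA gene on chromosome 21 whose transcripts are the host of 3 microRNAs, miR-99a, let-7c and miR-125b. In hg38 its RefSeq body runs from 16070488 to 16631727 on the plus strand, a length of 561240 nt, with 16 listed transcripts and 6 distinct annotated starts. The members described are all positions of 1 deposited list of candidate SF3A1 crosslink sites that fall inside this body: 25 of 2960 listed positions. The gene was chosen by its number of sites, the highest of any gene, so that number is a description and carries no test. Of all 58993 genes used, 3.89% held a site.

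The sites come from crosslinking and immunoprecipitation of SF3A1 in C4-2B, a metastatic derivative of the LNCaP prostate cancer line, made ready for CRISPR interference. Both libraries form 1 untreated group, harvested 48 h after seeding, crosslinked with 254 nm light at 400 mJ/cm2 and precipitated with 2 µg of antibody. The authors pooled the libraries before listing sites, so no value has a spread between replicates and depth per library is unknown. No input or mock library was used here, and the sources used here do not say whether the derivative is 1 clone.

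SF3A1 is a subunit of the U2 small nuclear ribonucleoprotein, which recognises the branch point upstream of the 3′ splice site during intron removal. A base bound to protein by ultraviolet light can be skipped by reverse transcriptase, so a deletion in a sequenced tag marks a candidate contact. Each listed position therefore has a count of tags that cover it and a count of tags that carry the deletion; the deleted share is their ratio. A microRNA host is transcribed as a long primary RNA, and Drosha with DGCR8 cuts the hairpins out of it before Dicer trims them to mature microRNAs. Let-7 microRNAs repress growth-promoting messages such as those of RAS and HMGA2, and miR-99 family members repress MTOR.

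The hosted hairpins are shown because the position of the sites is given relative to them. In the following lines, from RefSeq (GRCh38.p14, plus strand, 5′ to 3′), the mature arms are in capitals. MIR99A lies at chr21:16539089-16539169 and MIRLET7C at chr21:16539828-16539911.
MIR99A: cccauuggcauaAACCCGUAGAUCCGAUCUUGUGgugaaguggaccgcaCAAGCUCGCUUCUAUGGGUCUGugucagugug
MIRLET7C: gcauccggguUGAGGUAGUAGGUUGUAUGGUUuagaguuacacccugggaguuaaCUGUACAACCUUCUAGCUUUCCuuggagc

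The mature 5′ arms of all 3 microRNAs follow, with the seed, bases 2 to 8, in capitals. The seed is the stretch that pairs with target messages. Each of the 3 seeds is different.
hsa-miR-99a-5p: aACCCGUAgauccgaucuugug
hsa-let-7c-5p: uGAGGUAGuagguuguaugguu
hsa-miR-125b-5p: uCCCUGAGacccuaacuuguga

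No site fell in any of these hairpins, nor in the MIR125B2 gene at chr21:16590237-16590325. Most sites lay in the part of the gene body before MIR99A and MIRLET7C. Which of the gene's transcripts carry them was not determined. Of the 25 sites, 23 were upstream of MIR99A and MIRLET7C, 2 lay between MIRLET7C and MIR125B2, and 0 lay downstream of MIR125B2. The site nearest to MIR99A was 14858 nt upstream of it, at 16524231, and was the nearest to MIRLET7C as well, at 15597 nt. The site nearest to MIR125B2 was the last of the gene, at 16572602, 17635 nt upstream. All 3 microRNA genes thus had a site within 20 kb. Of the 1913 microRNA genes of the annotation, 230 (12.0%) had a site within 20 kb and 19.7% within 50 kb, and 2 held a site inside. The 3 genes share a host that was chosen by its number of sites, so no enrichment is read from this.

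**Figure D1:**
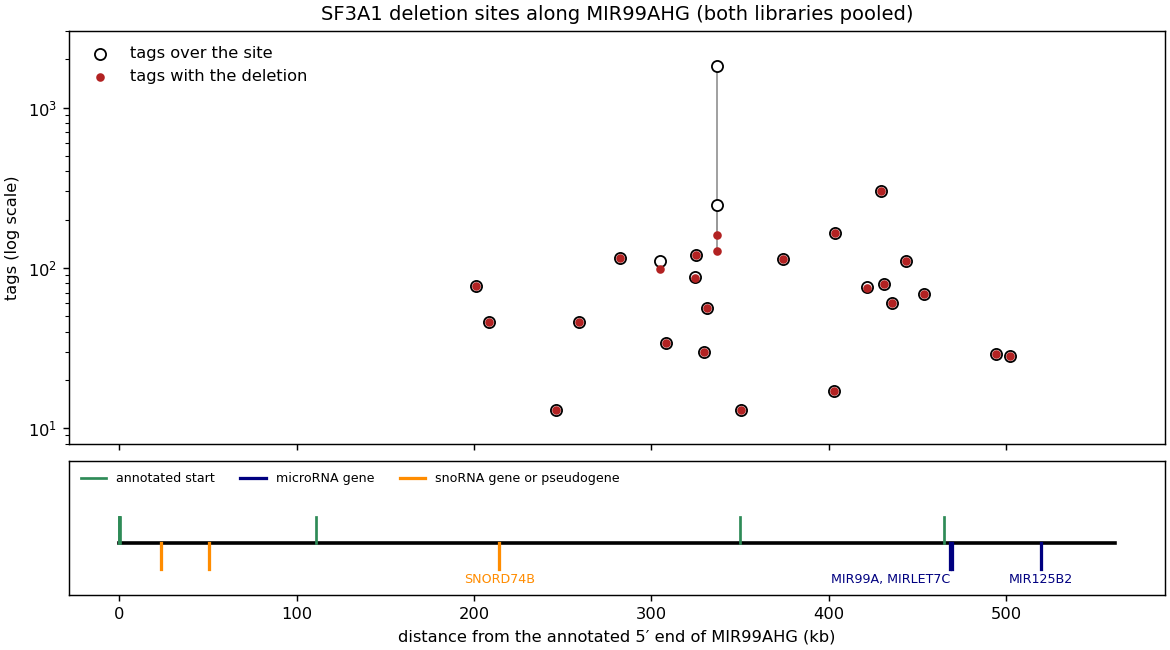
Tags over each of the 25 MIR99AHG sites (open circles) and tags with the deletion (filled circles), both on a log axis, against the distance from the annotated 5′ end in kb; the lower panel marks the 6 annotated starts, the 3 microRNA genes, SNORD74B and both pseudogenes. Sites begin at 201.4 kb and end at 502.1 kb, and at 337.0 kb a site with 1833 tags stands above all others.

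The sites occupied the middle and 3′ part of the gene body. The first 201406 nt, or 35.9% of the body, held no listed site, and neither did the last 59125 nt (10.5%). Between the first site at 16271894 and the last, 300708 nt held all 25, at 8.31 sites per 100 kb, against 4.45 per 100 kb over the whole body. In consecutive windows of 50 kb from the 5′ end, the richest held 8 sites (300 to 350 kb) and 7 sites (400 to 450 kb). The list holds only positions past the authors' threshold, so a stretch without a site says nothing of its coverage.

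All 25 sites were downstream of the 4 annotated starts nearest the 5′ end, at 16070488, 16070522, 16071114 and 16181398. The start at 16420295 lay among the sites, with 13 sites upstream and 12 downstream. The start at 16535572, the one nearest to MIR99A on its 5′ side, had 23 sites upstream and 2 downstream. The closest site to follow any start was at 16421198, 903 nt past the start at 16420295; all its 13 tags carried the deletion. Exon and intron boundaries were not used here, so sites are not assigned to either.

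All 25 sites were on the plus strand, the strand of the gene (100%, 95% Clopper-Pearson interval 86.3 to 100). Over the list, 96.1% of 1999 sites outside MIR99AHG that lay in exactly 1 gene of known strand were on that gene's strand. None of the 25 fell in another annotated gene. The body also contains the snoRNA gene SNORD74B and the pseudogenes VDAC2P1 and RPS26P5, and all 3 were free of sites. The site nearest to SNORD74B was 5600 nt upstream of it, while the pseudogenes lay 150229 and 176422 nt upstream of the first site.

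At most MIR99AHG sites no tag lacked the deletion. Deletion was complete at 19 of the 25 (76%, with 54.9 to 90.6 as the 95% Clopper-Pearson interval), beside 75.8% over all 2960 sites, a value inside that interval. No DNA sequence of the cells was used, so whether any of these deletions is already in their genome was not tested. The median coverage was 76 tags per site, with a range of 13 to 1833 and an interquartile range of 34 to 114. Over all sites the median was 54, and the 95% binomial interval of the MIR99AHG median, 46 to 111, contains that value. Coverage above 100 tags was found at 9 sites of the gene (36%), against 22.9% over the list. No site of the list had fewer than 13 deleted tags, and 2 sites of the gene, at 16316794 and 16421198, stood at that number. Intervals treat tags and sites as independent and cover counting error only; they say nothing of the spread between the libraries.

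Along the 5′ side of the occupied stretch, coverage was moderate and deletion complete. The first site, at 16271894, had 77 deleted tags of 77, and the next, at 16279096, had 46 of 46. After a gap of 37698 nt came 16316794 with 13 of 13, then 16329875 with 46 of 46 and 16352607 with 115 of 115. None of these first 5 sites held a tag without the deletion.

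The centre of the gene was denser and held most of the incomplete sites. At 16375114, 99 of 110 tags carried the deletion (90%, 95% Clopper-Pearson interval 82.8 to 94.9), and 34 of 34 did at 16378927. At 16395156 the count was 86 of 88 (97.7%, 92.0 to 99.7). Only 724 nt further, at 16395880, all 120 tags carried it. The sites at 16400349 (30 of 30) and 16401646 (56 of 56) were complete too. Of these 6 sites, 2 were incomplete.

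The closest pair of the gene combined its highest coverage with its lowest deleted shares. At 16407489, 160 of 246 tags carried the deletion (65.0%, 95% Clopper-Pearson interval 58.7 to 71.0). At 16407515, 26 nt downstream, it was 128 of 1833 (6.98%, 5.86 to 8.25). Coverage differed 7.45-fold across 26 nt. The same tags may cover both positions, so the counts are not independent and the 2 intervals are not compared. The position 16407515 alone took 47.3% of all tags counted over the gene's sites and 6.19% of their deleted tags. It ranked as number 5 by coverage in the whole list, and the next best covered site of the gene had 300 tags.

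Because of this position, the deleted share over all tags of the gene depends on whether it is counted. Of 3875 tags over the 25 sites, 2069 carried the deletion (53.4%). Without 16407515 it was 1941 of 2042 tags (95.1%). Over the list as a whole, 86.9% of tags carried it. The median per site moves little, from 76 to 72.5 tags, and the site count from 25 to 24.

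These were the 2 sites of MIR99AHG with a share under 90%, or 8% of its sites (95% Clopper-Pearson interval 0.984 to 26.0), beside 7.5% over all sites. Sites of very high coverage fell into 2 kinds over the list. Of 18 sites with more than 1000 tags, 9 had a share under 40%, 16407515 among them, and the other 9 had a share above 99%. Positions of the first kind lay, for example, in the mitochondrial 16S rRNA gene RNR2, in MALAT1 and in HSP90AA1. The list held 10 pairs of neighbouring sites within 50 nt, and in 8 of these both shares were under 90%. The MIR99AHG pair had the second largest coverage ratio of the 10, after a pair in RNR2 (11.9-fold), while the median ratio was 1.25.

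**Figure D2:**
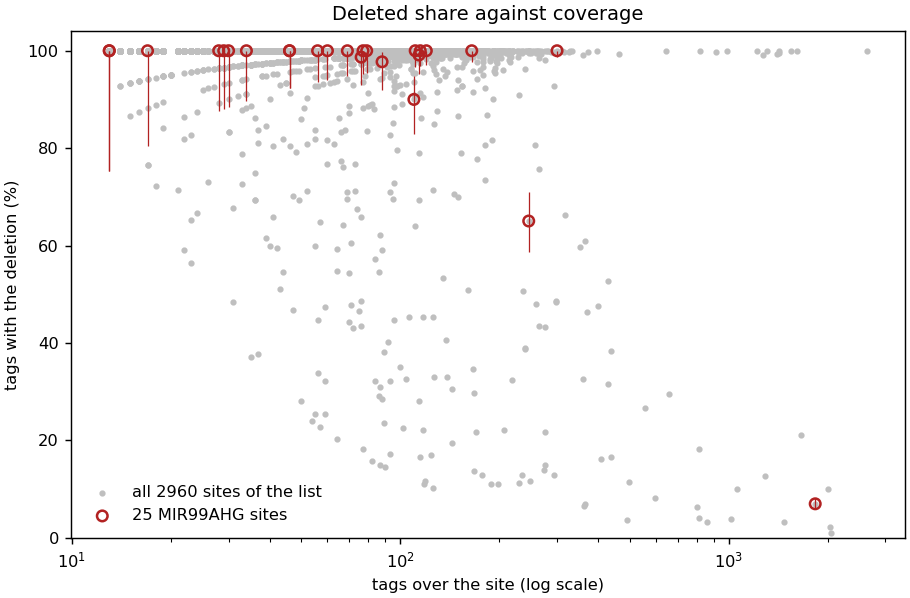
Deleted share in percent against tags over the site (log axis) for all 2960 sites (grey) and the 25 MIR99AHG sites (red, with 95% Clopper-Pearson intervals). The MIR99AHG sites lie at or near 100% except for 3, at 90%, 65.0% and 6.98%.

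The 3′ side of the occupied stretch returned to nearly complete deletion at variable coverage. After 16421198 came 16444444 with 113 of 114 deleted tags (99.1%, 95% Clopper-Pearson interval 95.2 to 99.98), 16473299 with 17 of 17 and, 954 nt on, 16474253 with 165 of 165. At 16492058 it was 75 of 76 tags (98.7%, 92.9 to 99.97). The site at 16499862 had 300 of 300, the most deleted tags of the gene and rank 25 in the list. It was followed by 16501633 (79 of 79), 16506080 (60 of 60), 16514149 (111 of 111) and 16524231 (69 of 69), a run of neighbours 10082 nt or less apart.

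Beyond this run few sites remained. The longest distance between neighbouring sites of the gene, 40741 nt, separated 16524231 from 16564972 and contains the hairpins of MIR99A and MIRLET7C. The next longest, 37698 nt, lay between 16279096 and 16316794 and contains no microRNA gene. The last sites, 16564972 with 29 of 29 deleted tags and 16572602 with 28 of 28, had low coverage. Neither reached MIR125B2.

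Complete deletion was split by coverage in the gene and in the list. Among the 9 sites with more than 100 tags, 5 were complete, against 56.9% of 678 such sites in the list. Among the 16 with at most 100 tags, 14 were complete (87.5%), against 81.4% of 2282. Each listed site had at least 13 deleted tags, which bounds the share from below at low coverage. The part of this bound in the split was not tested.

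Neighbouring sites were a median of 7936.5 nt apart (24 distances, 26 to 40741 nt; 95% binomial interval of the median 4447 to 17805). Of the distances, 13 were under 10000 nt, 3 under 1000 nt, and 6 over 20000 nt. In other genes of like length, taken as 0.5 to 2 times the MIR99AHG body, same-strand neighbours were a median of 53799 nt apart (153 distances), with 362 nt the shortest. More sites in a body of the same length bring shorter distances, and the number of sites chose the gene, so no test is given.

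Among 1001 other genes of this length, 193 held a site (19.3%), and among the 192 noncoding ones 16 did (8.33%). Nothing is read from these shares for MIR99AHG itself. The protein-coding genes of this class with the most sites were ANK3, which encodes the membrane adaptor ankyrin G, with 16, PPP3CA, the catalytic subunit of calcineurin, with 10, and the ephrin gene EFNA5 with 7. NCAM2, an adhesion molecule gene, held 7 as well. Of the noncoding genes, PVT1, a neighbour of MYC, held 9, and LINC02055, LINC02718, CFAP418-AS1 and MIR924HG held 2 each. In sites per 100 kb, MIR99AHG had 4.45, PPP3CA 3.09, PVT1 2.93, EFNA5 2.38 and ANK3 2.26. Outside this class, MALAT1, an abundant nuclear RNA, held 17 sites in 8.779 kb. By position, 16 of them also fell within the body of its antisense transcript TALAM1, all on the MALAT1 strand. Among the 30 genes of any length with at least 5 sites, MIR99AHG ranked 11 in sites per 100 kb.

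**Figure D3:**
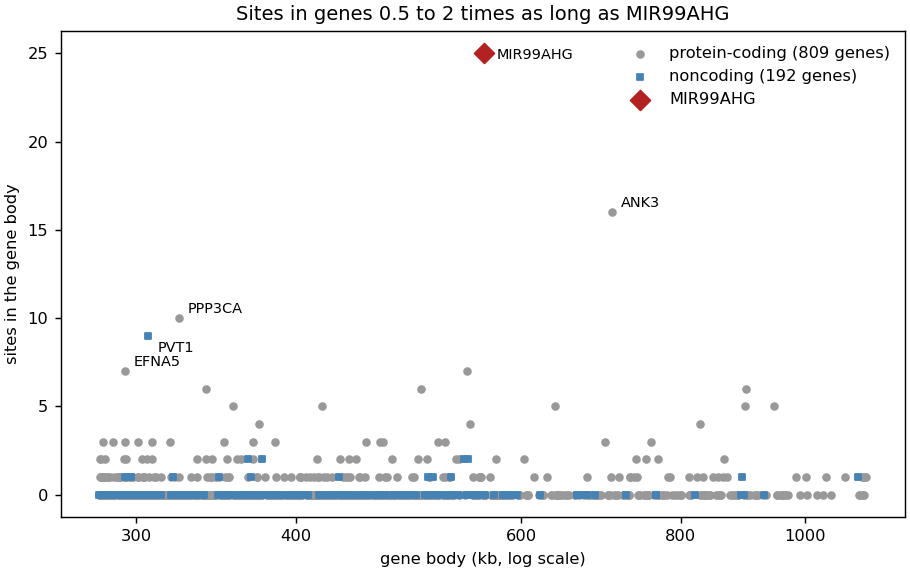
Number of sites in the gene body against body length in kb (log axis) for MIR99AHG and the 1001 genes of 0.5 to 2 times its length, protein-coding (grey circles) and noncoding (blue squares). MIR99AHG holds 25 sites, ANK3 16, PPP3CA 10 and PVT1 9.

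The part of the body that held the sites was smaller in MIR99AHG than in the 4 like-length genes set beside it here, though not than in all. From first to last its sites spanned 53.6% of the body, against 87.9% in ANK3, 90.7% in PPP3CA, 95.9% in EFNA5 and 96.2% in PVT1. The first site from the 5′ end stood at 35.9% of the body in MIR99AHG and at 4.69%, 4.07%, 3.77% and 2.17% in these 4 genes. Its longest distance between neighbours was 7.26% of the body, and those of the other genes were 29.8%, 22.7%, 41.7% and 31.7% in the same order. Where the strand of a gene is not in the table used (PPP3CA and PVT1), the 5′ end was taken from the strand of its sites. Over all 13 other genes of like length with at least 5 sites, the span ranged from 32.6% to 99.7% of the body with a median of 77.0%; it was below that of MIR99AHG in 3, namely ZNF385B, NEDD4L and PPFIA2. In 2 of the 13 the first site lay further along the body. These genes hold fewer sites each, and the differences were not tested.

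**Figure D4:**
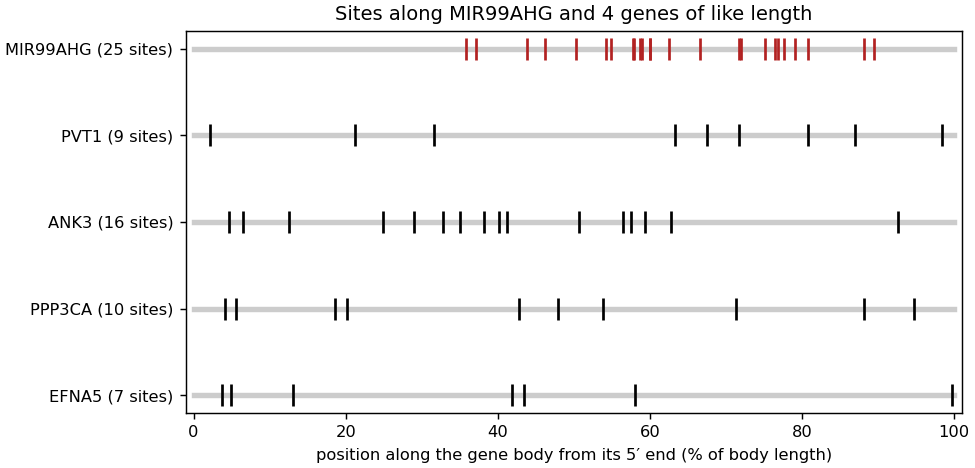
Position of each site (vertical marks) along the gene body, from 0% at the 5′ end to 100% at the 3′ end, in MIR99AHG and 4 genes of like length. The 25 marks of MIR99AHG lie between 35.9% and 89.5%, and those of the other genes begin before 5%.

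Deleted shares were then set beside those of other site groups, with no test. ANK3 had 10 complete sites of 16 at a median coverage of 75 tags, and over all other genes of like length 73.5% of 347 sites were complete and 4.03% were under 90%. Other long noncoding genes, counting sites in no protein-coding body, had 63.0% complete and 23.2% under 90% (138 sites); without MALAT1 and NEAT1, which are among them, it was 73.6% and 11.3% (106 sites). In MALAT1 1 of 17 sites was complete and 15 were under 90%, and in NEAT1, the paraspeckle RNA, 8 of 15 and 5. The MIR99AHG interval for complete sites was 54.9 to 90.6%. It holds the values of ANK3, of genes of like length and of other long noncoding genes with or without MALAT1 and NEAT1. The value of NEAT1 itself (53.3%) lay just below the lower limit. The NEAT1 interval, 26.6 to 78.7% from 15 sites, overlaps that of MIR99AHG, and no difference is read for NEAT1. MALAT1 (5.88%, interval 0.149 to 28.7%) lay lower, without overlap. Its median coverage was 264 tags, against 76 in MIR99AHG. Over the list, 56.9% of sites above 100 tags were complete, against 81.4% of the others. The part of coverage in the MALAT1 value was not tested. All intervals are Clopper-Pearson intervals that treat sites as independent. No difference was tested, and neither overlap nor its absence is read as a test.

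MIR99AHG was far from any other listed site of chromosome 21. It held 25 of the 61 listed sites of the chromosome (41.0%) and 48.1% of the 52 on the plus strand, in 1.35% of the stretch from the first to the last annotated gene. The rest of that stretch had 0.0875 sites per 100 kb. No listed site of the chromosome preceded the gene, although 192 annotated genes do. The next site downstream was 4.37 Mb away, in NCAM2, and within 1 Mb on either side there was none. The flanking genes RNU6-426P and RNU1-98P, both pseudogenes, and the nearest protein-coding genes USP25 and CXADR held 0 sites.

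Hosts of microRNAs with the same seeds were compared because each seed family has several genes. The miR-99a-5p seed is shared with miR-100-5p and miR-99b-5p, whose genes lie in MIR100HG on chromosome 11 and in SPACA6 on chromosome 19. These 2 hosts also contain the genes of miR-125b-1 and miR-125a, which carry the miR-125b-5p seed, and neither held a listed site, although MIR100HG is 394.5 kb long. Of the 14 genes whose mature product has the let-7c-5p seed, 5 lie in a host with a site. Among them is MIRLET7C itself, counted through the choice of MIR99AHG. The others share 2 hosts: MIRLET7A3 and MIRLET7B lie in MIRLET7BHG, and MIR98 and MIRLET7F2 in HUWE1, a ubiquitin ligase gene with 2 sites. Of 1771 microRNA genes outside MIR99AHG, 11.1% lie in a same-strand host with a site, a background that leaves MIRLET7C out. None of the 14 had a site inside.

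Other long noncoding microRNA hosts held few sites, though some held more for their length than MIR99AHG. Of 86 RefSeq genes other than MIR99AHG with symbols from MIR to HG, 6 held a site, and of all long noncoding genes 1.19% did; the hosts are longer, at a median of 19.3 kb against 9.11 kb. MIRLET7BHG, host of let-7a-3 and let-7b, held 3, with deleted shares of 79.2%, 96.3% and 98.7% at 48, 27 and 76 tags. MIR924HG and MIR570HG held 2 each, all complete. MIR17HG, host of the miR-17-92 oncogenic cluster, held 1 complete site of 56 tags, and MIR200CHG, host of an epithelial microRNA, 1 of 32. MIR3667HG held 1 of 21 tags. In sites per 100 kb, MIR200CHG (83.1), MIR17HG (14.5), MIRLET7BHG (10.7) and MIR570HG (8.56) stood above MIR99AHG (4.45), in far shorter bodies. MIR3667HG (0.412) and MIR924HG (0.367) stood below it. Of the hosts of about the length of MIR99AHG, MIR924HG (545.1 kb) held 2 sites and MIR3681HG (571.2 kb) and MIR4300HG (524.1 kb) 0.

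Among genes that make or use microRNAs, those with a site held 1 or 2 each. Of 22 such genes, 7 had a site, and of all protein-coding genes 10.2% did, at median lengths of 69.2 and 24.5 kb. DGCR8, the partner of Drosha, and DDX17, a helicase of the same complex, held 2 each. DROSHA, AGO2, which loads microRNAs, TNRC6B, a silencing scaffold, and the uridylyl transferases TUT4 and TUT7 held 1 each. Deleted shares were complete at all of these sites except 1 in DGCR8 (72 of 77 tags, 93.5%). RNA abundance was not measured, so for these lists, as for MIR99AHG, its part in the number of sites was not tested.

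For the label of the cells, 10 prostate luminal genes were looked up. Of these, 6 held a site, beside 10.2% of all protein-coding genes: KLK3, which encodes prostate-specific antigen, with 4, and KLK2, FOLH1, FOXA1, SLC45A3 and TMPRSS2 with 1 each. KLK4, HOXB13, ACP3 and STEAP2 held no listed site. Since RNA abundance was not measured, these counts show only where listed sites fell.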

How the data were processed

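The data are 1 list of single-base positions that the authors deposited. Per the file name, both libraries were pooled, unique tags kept, and deletion sites called by crosslink-induced mutation site (CIMS) analysis at an FDR of 10%. The deposited value of a position is the count of its deleted tags; the position's text name adds the count of all tags there. Neither is normalized. Tools in the submitters' processing notes are cutadapt, BWA (version 0.7.17), SAMtools and UMI-tools, and the build is hg38; their roles are not stated.

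Sites were assigned to gene bodies with RefSeq (GRCh38.p14, same primary coordinates); strands and starts came from its promoter and microRNA tables, which do not cover every gene. Positions are 1-based. Deleted shares carry exact Clopper-Pearson intervals, medians binomial order-statistic intervals. Pooling left no spread between samples and so no test. Named were MIR99AHG, genes inside and beside it, the genes of like length or of any length with the most sites, list members with a site, and genes of the seed families; NCAM2, NEAT1, RNR2, HSP90AA1 CFAP418-AS1, ZNF385B, NEDD4L, PPFIA2 and the longest hosts were added after their values were seen. Further genes fixed for the luminal list are not reported here. The gene and the lists were chosen with earlier results of these data known. Assignment and intervals were tested on simulated data. Software: Python 3.11.15 with numpy 2.4.6, scipy 1.17.1 and pandas 2.3.3.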

Additional observations from a re-analysis of the deposited data

How the results depend on the processing

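Of 45 recomputed values, 29 stayed within their interval or within 1.5 times the count, and 16 moved. Whether a value reversed in direction was not assessed. With more deleted tags than the median of 50, MIR99AHG kept 16 sites and 50.1% of tags deleted, 12.4% of like-length genes had a site, and the microRNA pathway and luminal lists had 3 members and 1 member with a site. With a deleted share under 0.9, the gene had 2 sites, 0% complete by construction, a median of 1039.5 tags, a distance of 26 nt and 13.9% of tags deleted; 1.3% of like-length genes, 1 microRNA host, 0 pathway genes and 1 luminal gene had a site. Both settings leave fewer sites, 1466 and 222 of 2960. The percentage of tags deleted, 53.4% as reported, was 95.1% with sites merged within 50 nt and without the best covered site, since both leave out 16407515; that setting, the percentage itself under each alternative and those for the pathway and luminal lists were chosen after seeing the data. Widening the body by 10000 nt, keeping its main strand and leaving out sites in other genes could change no MIR99AHG value. All 25 sites are on the plus strand and in no other gene, and no listed site lies within 1 Mb outside the body. These settings return the same sites, and their values count among the 29 that stayed. Because the libraries were pooled before deposit, neither could be left out. No paired analysis was possible because the labels give 1 group.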

Other observations

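The name of each listed position also holds an index that rises along each chromosome and strand, and whose meaning no source used here states. On the plus strand of chromosome 21 the MIR99AHG sites carried indices from 7 to 50. Of these 44 numbers 25 were listed (56.8%) and 19 were not. Over all chromosomes and strands, the highest listed indices, counted from 0, add up to 8764, of which 33.8% were listed. The window in the gene begins and ends at listed sites, so its share is not a like measure to this. Between the pair of sites at 16407489 and 16407515, 2 index numbers were not listed, and between the sites that flank MIR99A and MIRLET7C 4 were not. If the index numbers all positions with a deletion, further deletion positions lie in these stretches that did not pass the authors' threshold; this was not tested.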
